A study of Mus musculus with 10 samples.

Results

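The comparison set converted hair cells (cHCs), which are supporting cells of the mouse cochlea turned toward a hair cell fate by Atoh1, against every native hair cell type of the series pooled on one side. The question was which genes cHCs carried at levels that no native hair cell type shared. The members were 2 cHC libraries and 6 native hair cell libraries of 10 bulk RNA-seq libraries in all, and a library was taken from the name of its count file. The native side held 2 libraries each of outer hair cells (OHCs) at P7, OHCs at P21 and P22, named OHCs (P22) here, and inner hair cells (IHCs) at P74 and P75, named IHCs (P74). The other 2 libraries were supporting cells (SCs) at P26 and P27, from the cells that cHCs come from, and they are given beside the results.

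The cHCs came from P33 mice with the genotype Fgfr3iCreER+, Atoh1-HA+, alpha9 AChR-EGFP+ and a Cre-dependent Rosa26 tdTomato reporter. Tamoxifen at P12 and P13 switched on Atoh1-HA and tdTomato in cells that carried active Fgfr3-iCreER, and cells with both tdTomato and the Chrna9-driven EGFP were picked. The SCs carried the Fgfr3iCreER+ and tdTomato alleles without Atoh1-HA or EGFP. The labels give prestin-YFP knock-in mice (prestin-YFPYFP/+) for both OHC ages, whereas the study describes a prestin CreERT2 and tdTomato line for OHCs (P7) and places the older OHCs a day later than the labels do. The IHCs came from mice with Pval-Cre+ and the same tdTomato reporter. The study lists tamoxifen at P12 and P13 for SCs too, and at an earlier age for its OHC (P7) line. It lists none for OHCs (P22) or IHCs. Every library was made from handpicked, pooled fluorescent cells, so that how many cells made a signal and how much RNA each cell held cannot be told apart. The libraries of a pair were taken on different postnatal days, and so from different mice, for SCs, OHCs (P22) and IHCs. The labels do not say whether the cHC pair or the OHC (P7) pair came from separate mice, and p values measure only the spread between the libraries at hand.

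Hair cells turn deflection of an actin-based hair bundle into an electrical signal. OHCs amplify sound through the motor protein prestin, and IHCs release glutamate onto the auditory nerve at ribbon synapses. In development, Atoh1, a basic helix-loop-helix factor that binds E-box sequences, starts the hair cell program, and Notch signalling keeps neighbouring cells in the supporting cell fate. Atoh1 itself is then switched off in maturing native hair cells, while markers such as oncomodulin and prestin come up.

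The libraries held 15016129 to 40518766 gene counts, and 14332 to 18333 genes were detected in each. Pairs of libraries are given below in the order cHC 13 and 16, OHC (P7) 15 and 14, OHCs (P22) of P21 and P22, IHCs of P74 and P75, and SC 12 and 11, as gene read counts scaled by TMM to a common depth (CPM). Levels are compared within a gene and never between genes. A level of 3 counts, taken as the floor of detection, corresponded to 0.0762 to 0.2645 CPM, and this floor covers counting error alone. The P21 library of OHCs (P22) stood apart, with a TMM factor of 0.5825 where the other libraries had 0.9298 to 1.199, and its top 10 genes took 41.3% of the counts. The libraries numbered 11 to 16 held SCs, cHCs and OHCs (P7), and those of OHCs (P22) and IHCs carry numbers of another series. The cHCs thus differ from OHCs (P22) and IHCs in numbering series and tamoxifen as well as in type and age, and these cannot be told apart. OHCs (P7) share the series of cHCs, but type and age cannot be told apart there either. Of the markers of the labelled type, Myo6 and Pou4f3 are given here, and the whole list of hair cell identity genes follows below. Myo6, an unconventional myosin of hair cells, stood at 2775 and 2861 CPM in cHCs, 2144 to 2658 CPM in the native libraries and 246 to 277 CPM in SCs. Pou4f3, a hair cell transcription factor, stood at 235 and 329.7 CPM in cHCs, below all native libraries (404 to 559.7 CPM), and at 0.355 and 0.584 CPM in SCs. Neither gene passed the test between cHCs and native hair cells (edgeR quasi-likelihood test with Benjamini-Hochberg adjustment, FDR = 0.693 for Myo6 and 0.301 for Pou4f3).

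Of 16891 genes tested, 583 were higher in cHCs than in native hair cells (3.45%) and 136 were lower (0.805%) at an FDR under 0.05, where the native side was the mean of the 3 types on the log2 scale. A gene was called outside the native range when both cHC libraries lay above the highest, or both below the lowest, of the 6 native libraries. That held for 1476 genes above the range (8.74%) and 909 below it (5.38%), with or without a call. Both conditions together were met by 443 genes on the higher side (2.62%) and by 126 on the lower side (0.746%), and the remaining 150 called genes lay within the native range. Of the 443 higher genes, 164 had a mean under 1 CPM in each of the 3 native types. Between the lowest cHC and the highest native library their median gap was 5.31-fold, and it was 10-fold or more for 169 genes. For the 126 lower genes the median gap was 3.78-fold, and it was 10-fold or more for 27 genes. The native type nearest to cHCs was OHCs (P7) for 260 of the 443 higher genes, IHCs for 132 and OHCs (P22) for 51.

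**Figure D1:**
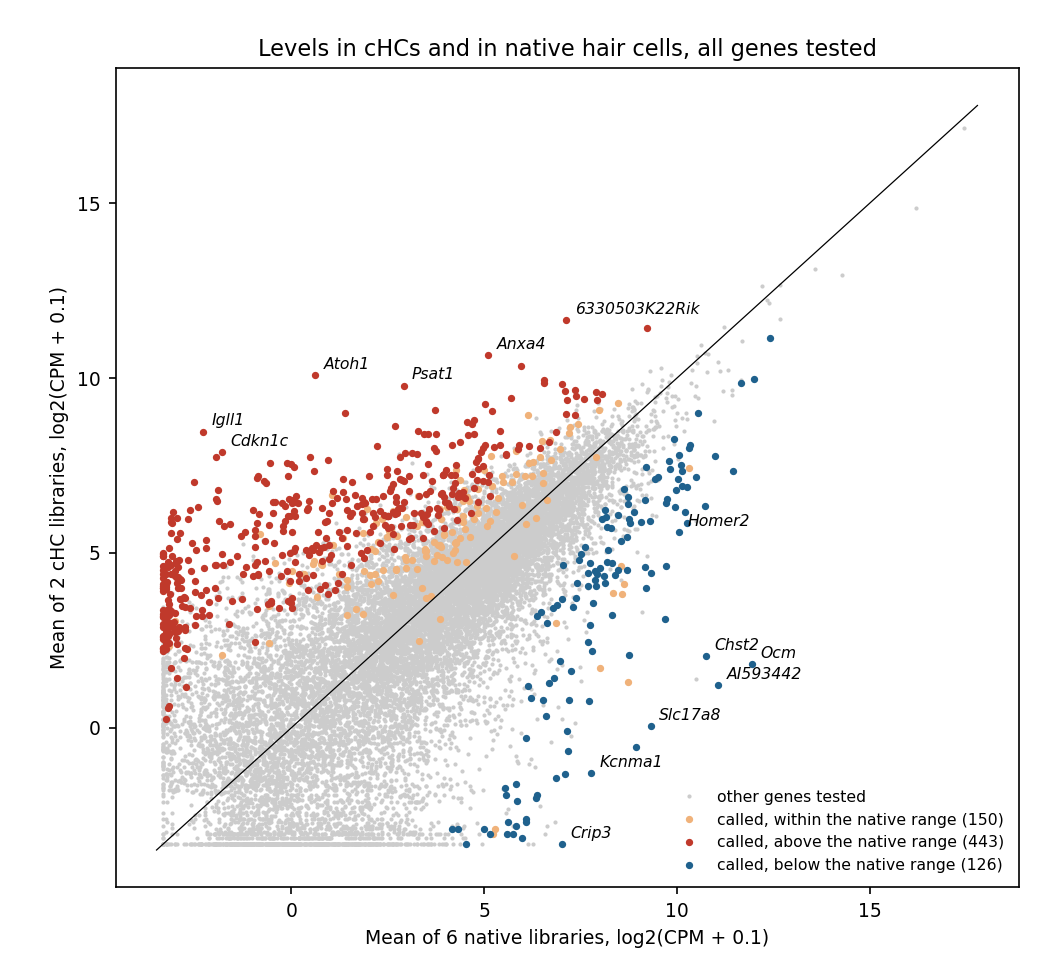
Mean level of each tested gene in 2 cHC libraries (vertical axis, log2(CPM + 0.1)) against the mean in 6 native hair cell libraries (horizontal axis, same unit), with the line of equal levels. Red points are the 443 genes called higher and above the native range, blue points the 126 called lower and below it, and orange points the 150 called within it; many red points lie at the left edge, where native levels were close to 0.

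Set beside SCs, the genes above the native range fell into separate groups. The mean of the SC libraries was also above the native range for 207 of the 443 genes, within it for 220 and below it for 16. Both SC libraries were below both cHC libraries for 313 of the 443 genes, and 194 genes were under 1 CPM in both SC libraries. No limit on native levels was set for these 194. They include Nhlh1, which was at 113 and 114 CPM in OHCs (P7). Of the 126 genes below the native range, 108 had a SC mean below it as well and 18 had a SC mean within it. The contrast of SCs against the same native libraries called 1114 genes higher (6.60%) and 636 lower (3.77%), and it shares the native libraries with that of cHCs.

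Because the contrast averages the 3 native types on a log scale, a gene missing from OHCs (P22) and IHCs was called higher even where cHCs matched OHCs (P7). In 229 of the 583 higher genes at least 1 native type was listed at 0 in both libraries, most often OHCs (P22), with 173 genes, and least often OHCs (P7), with 55. For such genes the fitted log2 difference depends on the prior count and is not given, and CPM are given in its place. Genes near 0 in every native library entered the test through cHC or SC libraries, so their FDR is no separate support. Only OHCs (P7) share the numbering series with cHCs, and against them alone 21 genes were higher and 37 lower of 16891 tested. A short list with no member called against OHCs (P7) is therefore no result about its members. Counts of list members called against all native types, given below, stand beside 3.45% higher and 0.805% lower over all genes tested. With the 6 native libraries treated as 1 group, so that the spread between native types entered the error, 82 genes were higher and 20 lower.

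There were 8 genes higher in cHCs than in each native type taken alone at an FDR under 0.05 (8 of 16891, 0.0474%), among them 6330503K22Rik, Cntn1, Ecel1, Igll1, Pax2, Psat1 and Rph3a. All 8 passed against OHCs (P7), with an FDR of 0.0176 to 0.0493 by edgeR's quasi-likelihood test. Their positions are those of the GENCODE gene models on the mm9 build, and all 8 are protein-coding.

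Igll1 (chromosome 16, 16860764 to 16864078, minus strand), the surrogate immunoglobulin light chain of early B cells, was at 237 and 472 CPM in cHCs. It was at 0.134 and 0.491 CPM in OHCs (P7), listed at 0 in all 4 other native libraries, and at 0.267 and 0.637 CPM in SCs. The cHC libraries stood apart from every other library of the series for this gene. Pax2 (chromosome 19, 44830539 to 44912758, plus strand), a paired box factor of the early otic epithelium, was at 46.2 and 114 CPM in cHCs and at most 0.253 CPM in any native library. In SCs Pax2 was at 0.0444 and 0.106 CPM, and its call against OHCs (P7) had the FDR nearest the threshold of the 8 (0.0493, edgeR quasi-likelihood test).

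Ecel1 (chromosome 1, 89044230 to 89053096, minus strand), a neuronal endopeptidase-like protein, was at 84.8 and 346 CPM in cHCs and between 0.0421 and 0.546 CPM in native libraries. In SCs it was at 0.0444 and 0.292 CPM, so that SCs lay inside the native range. Rph3a (chromosome 5, 121390511 to 121459527, minus strand), the synaptic vesicle protein rabphilin, was at 81.9 and 173 CPM in cHCs against 0.0671 to 1.5 CPM in native libraries, a 239-fold ratio of means.

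Both cHC libraries and both SC libraries carried Psat1 and Cntn1. Psat1 (chromosome 19, 15979168 to 16021827, minus strand), an enzyme of serine synthesis, was at 998 and 764 CPM in cHCs, 29.9 and 76.4 CPM in SCs and 0 to 16.3 CPM in native libraries. The cHC level of Psat1 was also higher than that of SCs (log2 difference 4.05 ± 0.88 SE, edgeR quasi-likelihood FDR = 0.0464). Cntn1 (chromosome 15, 91881596 to 92172398, plus strand), the neural adhesion molecule contactin 1, was at 79.6 and 91.9 CPM in cHCs and 58 and 78.3 CPM in SCs, and at 0.201 to 1.55 CPM in native libraries. Between cHCs and SCs the difference of Cntn1 did not pass the test (log2 difference 0.33 ± 0.84 SE, edgeR quasi-likelihood FDR = 0.912).

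The gene 6330503K22Rik (chromosome 7, 125856066 to 125880538, plus strand) was present in every library and still separated cHCs from the rest. It was at 2438 and 4024 CPM in cHCs, 131 and 72.8 CPM in OHCs (P7), 346 and 128 CPM in OHCs (P22), 65.1 and 99 CPM in IHCs, and 73.3 and 43.6 CPM in SCs. The log2 difference from the native mean was 4.68 ± 0.42 SE (edgeR quasi-likelihood FDR = 0.000407), and from OHCs (P7) alone 4.99 ± 0.66 SE (FDR = 0.0176). It was the only one of the 8 genes that stayed beyond every native type whichever 1 of the 8 hair cell libraries was left out. By contrast, only 6330503K22Rik and Psat1 stayed beyond every type without cHC library 16.

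Stretches of promoter sequence are shown for 4 of these genes, those whose start site window held an E-box of the kinds CAGCTG or CAGATG, because Atoh1 belongs to the E-box binding factors. Windows run from 250 bases before to 50 bases after a start site in RefSeq, on the GRCm38.p6 build, and 6 of the 8 genes matched 13 windows there. Of these 13 windows, 5 held either motif (38.5%), beside 26% of the windows of tested genes. Rph3a and Pax2 have 3 windows each, and the 1 shown was chosen for its motifs. Igll1 and Ecel1 have 1 window each. Capitals mark CAGCTG and also CAGATG or its reverse complement on the strand printed. Rph3a is at chr5:121008435-121008734 (minus strand), Pax2 at chr19:44755502-44755801 (plus strand), Igll1 at chr16:16863936-16864235 (minus strand) and Ecel1 at chr1:87156307-87156606 (minus strand).
Rph3a: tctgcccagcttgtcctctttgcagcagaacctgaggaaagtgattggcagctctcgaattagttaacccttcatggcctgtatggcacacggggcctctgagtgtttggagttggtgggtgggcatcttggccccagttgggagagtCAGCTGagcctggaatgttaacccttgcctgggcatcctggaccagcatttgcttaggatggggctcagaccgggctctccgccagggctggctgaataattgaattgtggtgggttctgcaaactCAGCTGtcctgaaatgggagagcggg
Pax2: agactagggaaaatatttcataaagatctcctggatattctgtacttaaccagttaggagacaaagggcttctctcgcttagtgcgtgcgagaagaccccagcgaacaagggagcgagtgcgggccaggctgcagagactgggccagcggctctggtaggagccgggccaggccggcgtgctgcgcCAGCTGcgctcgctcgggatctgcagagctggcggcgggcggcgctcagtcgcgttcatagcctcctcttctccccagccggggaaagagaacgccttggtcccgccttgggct
Igll1: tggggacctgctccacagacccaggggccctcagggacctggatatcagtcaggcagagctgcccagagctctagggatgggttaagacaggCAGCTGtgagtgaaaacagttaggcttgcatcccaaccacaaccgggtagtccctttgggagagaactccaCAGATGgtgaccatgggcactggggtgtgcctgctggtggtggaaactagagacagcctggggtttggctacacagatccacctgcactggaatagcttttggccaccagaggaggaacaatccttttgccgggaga
Ecel1: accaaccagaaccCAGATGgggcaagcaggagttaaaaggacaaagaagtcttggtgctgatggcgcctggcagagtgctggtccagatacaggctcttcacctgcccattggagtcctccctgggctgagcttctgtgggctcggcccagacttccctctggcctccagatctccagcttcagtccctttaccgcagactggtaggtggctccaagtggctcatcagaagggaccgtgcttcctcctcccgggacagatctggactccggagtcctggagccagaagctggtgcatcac
Letters that spell CAGCTG were found in 16.3% of all 32851 windows in the RefSeq table, in 15.9% of the 13261 windows of tested genes, and in 20.8% of the 409 windows of genes called higher and above the native range. Letters that spell CAGATG on either strand were found in 17.2%, 12% and 16.4% of the same windows. Among 118 windows of genes called lower and below the native range the share was 11% for each motif. A match of letters describes the sequence, and no binding was measured.

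**Figure D2:**
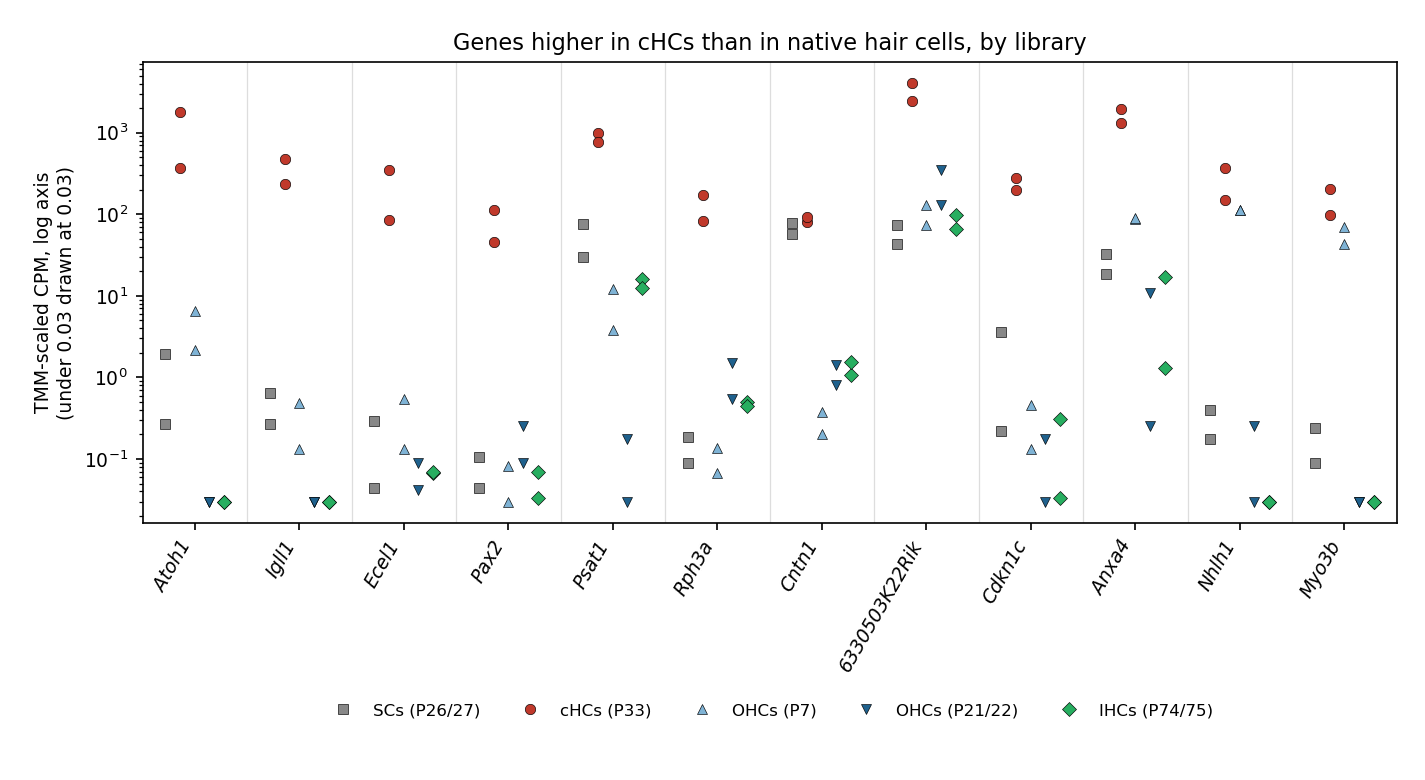
Level of 12 genes called higher in cHCs in each of the 10 libraries (vertical axis, TMM-scaled CPM on a log axis, values under 0.03 drawn at 0.03); each point is a library and colours give the cell type. For Atoh1 to Cdkn1c the cHC points lie far from the native points, whereas for Nhlh1 and Myo3b the OHCs (P7) lie close under them, and Cntn1 and Psat1 are present in SCs too.

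Atoh1, the transgene's gene, was at 364 and 1812 CPM in cHCs. In OHCs (P7) it was at 2.15 and 6.44 CPM, and all 4 libraries of OHCs (P22) and IHCs were at 0. SCs were at 0.267 and 1.91 CPM, so that Atoh1 was high in cHCs alone, and the counts of the native gene and of Atoh1-HA cannot be told apart. It was higher in cHCs than in native hair cells (edgeR quasi-likelihood FDR = 0.000533), whereas against OHCs (P7) alone the FDR was 0.0542.

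Of 29 tested members of a list of early hair cell and proneural factors, 10 were higher in cHCs and none was lower by edgeR's quasi-likelihood test (3 were lower at an unadjusted p under 0.05, and 2 by limma-voom and by DESeq2), and all 10 lay above the native range; the list median was 1.69 on the log2 scale, against 0.20 over all genes tested. In SCs against native hair cells, 2 of the 29 were higher and 9 lower. The 10 were Atoh1, Hes6, Insm1, Neurod6, Nhlh1, Srrm4, Dll3, Mfng, Cbfa2t3 and St18. Nhlh1, a helix-loop-helix factor of young neurons and hair cells, was at 149 and 371 CPM in cHCs, 113 and 114 CPM in OHCs (P7), and 0 to 0.253 CPM in OHCs (P22) and IHCs. Cbfa2t3, a transcriptional corepressor, was at 55.7 and 123 CPM in cHCs and at most 0.739 CPM in native libraries (edgeR quasi-likelihood FDR = 0.00249). St18, a zinc finger factor of the Myt1 family, was at 21.6 and 106 CPM in cHCs and at 0 in 5 of 6 native libraries. Srrm4, a neural splicing regulator needed in hair cells, was at 201 and 344 CPM in cHCs, 75 to 104 CPM in OHCs (P7) and IHCs, and 0.617 and 0.295 CPM in OHCs (P22). Thus some of these genes were shared with OHCs (P7) or IHCs at lower levels, and others were near 0 in every native library.

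Several members of this list rested on cHC library 16, whose summed level over the list was 5063 CPM against 1943 CPM in library 13 and 1524 to 2849 CPM in native libraries. Atoh1 is part of this sum and of the 10 higher members, at 364 CPM in library 13 and 1812 CPM in library 16. Its counts cannot be told apart from those of the Atoh1-HA transgene. Neurod6, a neuronal helix-loop-helix factor, was at 7.66 CPM in library 13 and 119 CPM in library 16. Without library 16 its call and that of Insm1 were lost (edgeR quasi-likelihood FDR = 0.105 for Neurod6 and 0.058 for Insm1). Insm1, a zinc finger factor of early OHCs and neuroendocrine cells, was at 18.8 and 90.1 CPM in cHCs, 3.69 and 0.846 CPM in OHCs (P7) and 0 elsewhere among native hair cells. Hes6, a Notch pathway member that acts beside Atoh1, was at 44 and 88.2 CPM in cHCs and 0 to 8.55 CPM in native libraries, and its call was kept only without the P75 library of IHCs, with an FDR of up to 0.188 in the other fits. None of the 29 members passed against OHCs (P7) alone by edgeR's quasi-likelihood test, where the list median was 1.24. There 10 were higher and 1 lower at an unadjusted p under 0.05, and limma-voom called 3 and DESeq2 8 higher.

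The Notch pathway, in which ligands on one cell signal through receptors to Hes and Hey targets in the next, had 9 of 29 tested members higher in cHCs and none lower (edgeR quasi-likelihood test; none lower at an unadjusted p under 0.05, by limma-voom or by DESeq2), with a list median of 2.82 (log2; 0.20 over all genes tested). Against native hair cells, SCs had 8 members higher and 2 lower. The ligand gene Dll3 was at 48.3 and 70.1 CPM in cHCs, 0 in 5 of 6 native libraries and 0.0818 CPM in the other one. The ligand gene Dll4 was at 20.6 and 57.2 CPM in cHCs, 18.3 and 7.99 CPM in OHCs (P7), 0.0882 and 2.48 CPM in OHCs (P22) and 0 in IHCs, with an FDR of 0.0299 (edgeR quasi-likelihood test). That call was lost without cHC library 16, either OHC (P7) library or either IHC library, with an FDR of up to 0.138. Mfng, a fringe glycosyltransferase that modifies Notch, was at 59.7 and 151 CPM in cHCs, 49.1 and 40.2 CPM in OHCs (P7) and 0 in all other native libraries. Dll3 and Mfng stand in the list of early factors too, so that the counts of both lists are not separate.

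On the receiving side, Hey2, a Notch target of pillar and other supporting cells, was at 92.2 and 16.1 CPM in cHCs, 198 and 134 CPM in SCs and 0 to 11.3 CPM in native libraries (edgeR quasi-likelihood FDR = 0.0053). Hey1, a related target, was at 60.03 and 50.8 CPM in cHCs, 537 and 359 CPM in SCs and 1.14 to 40.4 CPM in native libraries (FDR = 0.0151, edgeR quasi-likelihood test). Both genes were thus between SCs and native hair cells. None of the 29 members passed against OHCs (P7) alone by edgeR's quasi-likelihood test, where 9 were higher at an unadjusted p under 0.05, and limma-voom called 2 and DESeq2 9 higher.

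**Figure D3:**
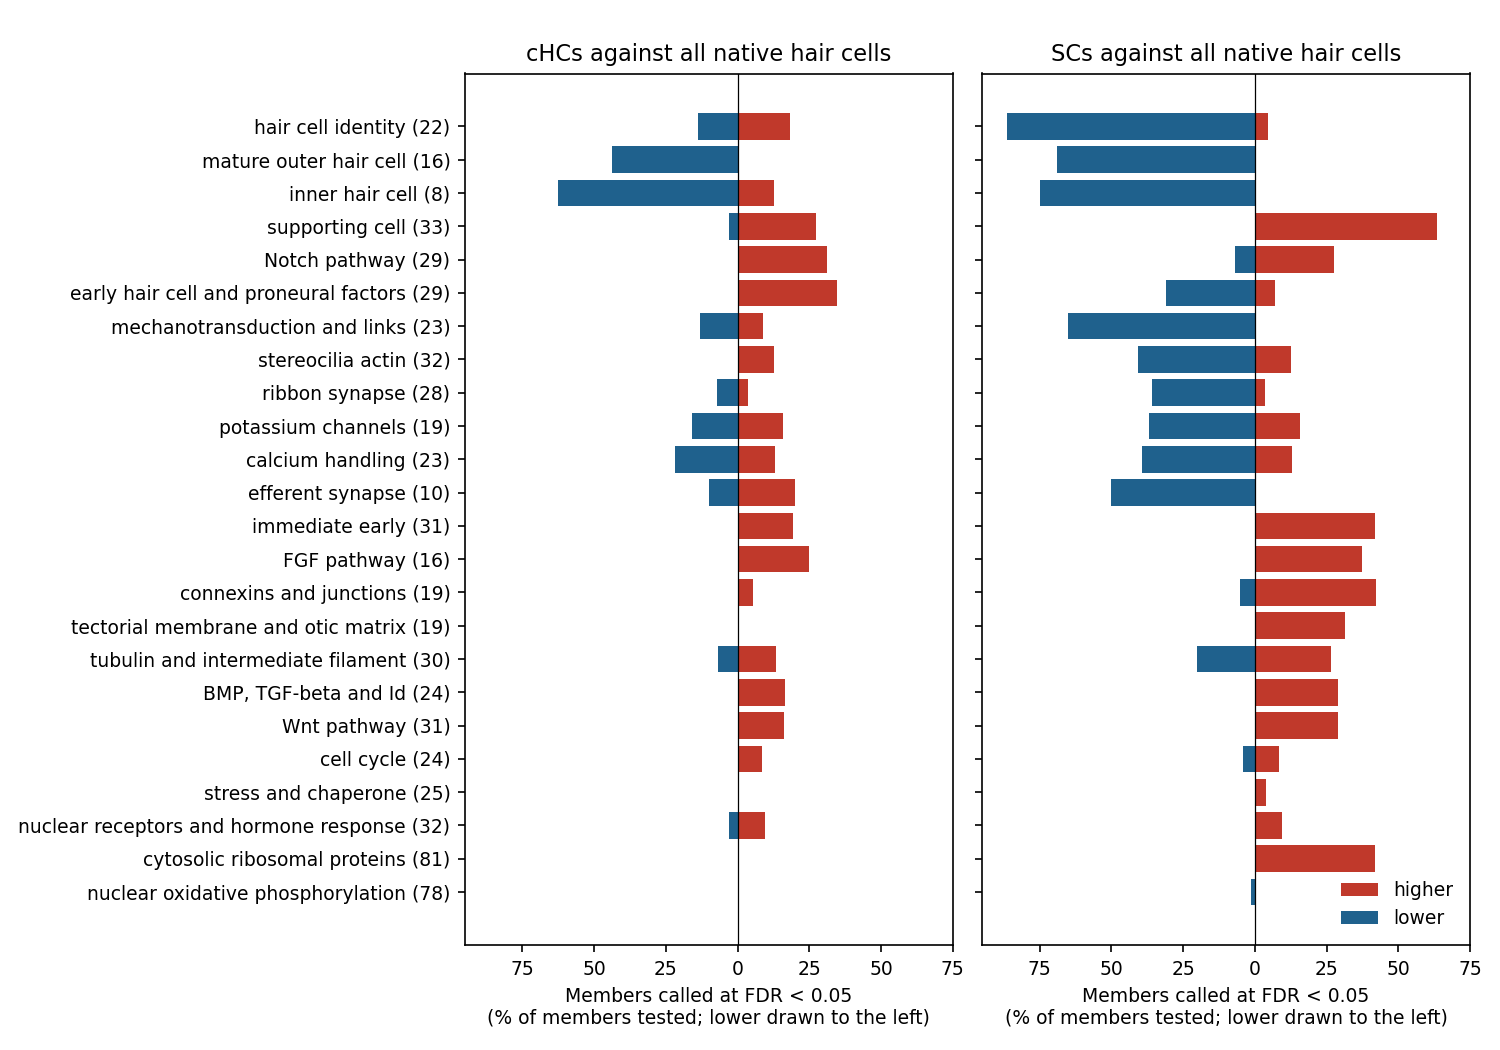
Share of the tested members of each gene list called higher (red, to the right) or lower (blue, to the left) at an FDR under 0.05, in % of members tested, for cHCs (left panel) and SCs (right panel) against the same 6 native libraries; the number of members tested is in brackets. Proneural and Notch members were called in one direction in cHCs, 10 and 9 of 29, whereas hair cell identity genes were called lower for 19 of 22 members in SCs and 3 of 22 in cHCs. Lists share members, among them Dll3 and Mfng in the proneural and Notch lists, so that their counts are not separate.

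Of 22 hair cell identity genes, 4 were higher and 3 lower in cHCs, whereas 19 were lower and 1 higher in SCs. The 4 higher genes were Atoh1, Chrna9, Pvalb and Rasd2. Counts of Atoh1 cannot be told apart from those of the Atoh1-HA transgene. Rasd2 lay within the native range, at 219 and 385 CPM in cHCs and 247 and 377 CPM in OHCs (P7). With or without a call, 5 of the 22 lay above the native range and 8 below it. The sum of the 22 was 8081 and 11495 CPM in cHCs, below all native libraries (11744 to 19462 CPM), and 1466 and 1297 CPM in SCs. Atoh1 gave 364 and 1812 CPM of the cHC sum. Pvalb, the calcium buffer parvalbumin, was at 599 and 1227 CPM in cHCs, 228 and 204 CPM in OHCs (P7), 91.4 and 153 CPM in OHCs (P22) and 62.1 and 42.9 CPM in IHCs. Every cHC library was above every native one, with a log2 difference of 3.03 ± 0.38 SE (edgeR quasi-likelihood FDR = 0.00257). Chrna9, the alpha9 subunit of the receptor at efferent synapses, was at 669.9 and 648 CPM in cHCs and 7.14 to 405 CPM in native libraries, with a log2 difference of 3.06 ± 0.46 SE (FDR = 0.00465, same test). The reporter that was used to pick cHCs is driven by Chrna9, and Pvalb drives the Cre of the IHC line.

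Among the lower identity genes, Otof, the calcium sensor of vesicle release, was at 279 and 161 CPM in cHCs, 1036 and 1145 CPM in OHCs (P7), 338 and 490.2 CPM in OHCs (P22) and 5009.9 and 4216 CPM in IHCs. Its log2 difference was -2.54 ± 0.37 SE (edgeR quasi-likelihood FDR = 0.00458), and both cHC libraries lay below the native range. Calm2, a calmodulin gene, was at 915 and 1094 CPM in cHCs, much as in SCs, and at 1472 to 7316 CPM in native libraries. Tmc1, a pore-forming subunit of the transduction channel, was at 46.2 and 1.91 CPM in cHCs and 184 to 1302 CPM in native libraries. The call of Tmc1 was lost without the P21 library of OHCs (P22) (FDR = 0.0513, edgeR quasi-likelihood test).

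There were 22 genes lower in cHCs than in each native type taken alone (22 of 16891, 0.130%), and 6 of them stayed so whichever hair cell library was left out: AI593442, Chst2, Crip3, Homer2, Kcnma1 and Ocm. AI593442 (chromosome 9, 52481149 to 52487534, minus strand) was at 2.85 and 1.63 CPM in cHCs and 2 and 1.89 CPM in SCs. It was at 3259 and 3267 CPM in OHCs (P7), 2627 and 1184 CPM in OHCs (P22), and 1305 and 1268 CPM in IHCs, with a log2 difference of -9.81 ± 0.63 SE (edgeR quasi-likelihood FDR = 0.000119). The cHCs were thus at the level of SCs for a gene abundant in all 6 native libraries. Ocm (chromosome 5, 144780673 to 144787539, minus strand), the OHC calcium buffer oncomodulin, was at 4.98 and 1.91 CPM in cHCs and 2.71 and 3.16 CPM in SCs. Native levels of Ocm were 3400.2 and 3160.3 CPM in OHCs (P7), 7562 and 9278 CPM in OHCs (P22), and 239 and 68.6 CPM in IHCs. The log2 difference was -8.88 ± 0.77 SE against all native hair cells (edgeR quasi-likelihood FDR = 0.000334) and -9.90 ± 0.82 SE against OHCs (P7) alone (FDR = 0.000631).

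Chst2 (chromosome 9, 95301348 to 95307689, minus strand), a sulfotransferase that modifies sugar chains, was at 6.04 and 2.06 CPM in cHCs and 767 to 2882 CPM in native libraries. Its log2 difference was -8.57 ± 1.01 SE (edgeR quasi-likelihood FDR = 0.00164), and SCs stood at 3.78 and 0.452 CPM. Homer2 (chromosome 7, 88745367 to 88851811, minus strand), a scaffold protein that binds calcium release channels, was at 59.4 and 37.2 CPM in cHCs and 577 to 1619 CPM in native libraries. Homer2 was above SCs, which were at 0.711 and 0.611 CPM (log2 difference of cHCs from SCs 6.19 ± 0.51 SE, edgeR quasi-likelihood FDR = 8.99e-05). It was 22.1 times lower in cHCs than in native hair cells by the ratio of means.

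Kcnma1 (chromosome 14, 24117983 to 24622526, minus strand), the pore subunit of the BK potassium channel, was at 0.255 and 0.356 CPM in cHCs, which is 20 counts in all. Native libraries had 106 and 25.7 CPM in OHCs (P7), 479 and 162 CPM in OHCs (P22), and 187 and 350.5 CPM in IHCs. The ratio of native to cHC means was 714, and the FDR was 0.00145 (edgeR quasi-likelihood test). The noncoding gene A830039N20Rik, whose model lies 5.12 kb from that of Kcnma1 on the same strand, was at 0.0425 and 0 CPM in cHCs and 0.529 to 65.2 CPM in native libraries, and its call was lost without either cHC library (FDR of up to 0.152). Crip3 (chromosome 17, 46565875 to 46568725, plus strand), which encodes a LIM domain protein, had no count in either cHC library and 8.32 to 501 CPM in native libraries. Against a floor of 3 counts in each cHC library the native mean was at least 1264-fold higher.

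The other 16 included Gcnt4, A530016L24Rik, Atp6v1c2, Sgip1, Pknox2, Zfp827 and Tuba8. Gcnt4, a glycosyltransferase, was at 0.0851 and 0.0254 CPM in cHCs and 30.8 to 119 CPM in native libraries. Atp6v1c2, a subunit of the vacuolar proton pump, was at 0.0425 and 0 CPM in cHCs and 15.5 to 76 CPM in native libraries. Sgip1, an endocytic adaptor, was at 3.79 and 6.86 CPM in cHCs, 0.577 and 0.611 CPM in SCs and 85.1 to 293 CPM in native libraries. Pknox2, a homeodomain factor, and Zfp827, a zinc finger protein, were lower in cHCs than in SCs too. Pknox2 was at 1.28 and 0.381 CPM in cHCs, 59.7 and 11.3 CPM in SCs and 58.6 to 262 CPM in native libraries (cHCs against SCs, edgeR quasi-likelihood FDR = 0.0183). Zfp827 was at 0.0851 and 0.178 CPM in cHCs, 44.5 and 10.1 CPM in SCs and 19.9 to 95.8 CPM in native libraries (cHCs against SCs, FDR = 0.00864, same test).

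**Figure D4:**
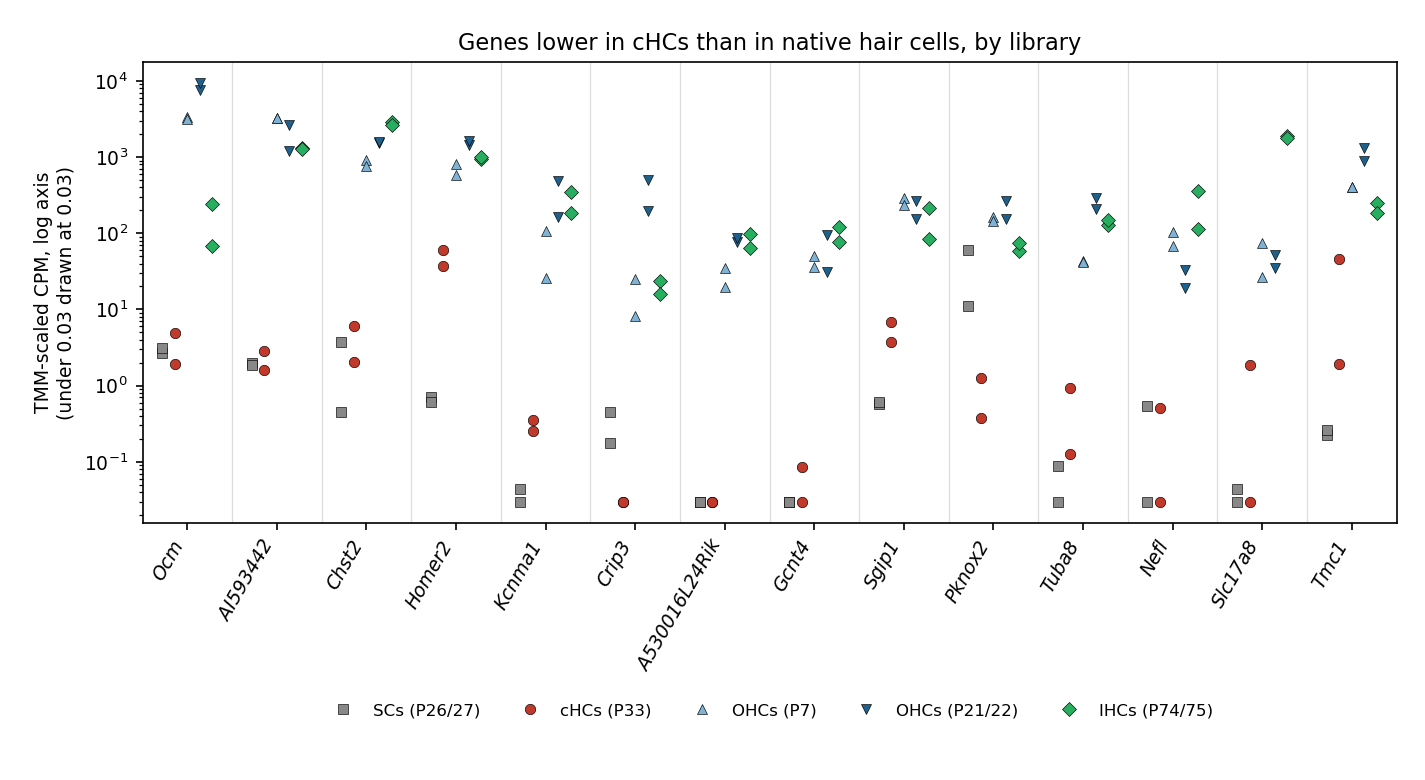
Level of 14 genes called lower in cHCs in each of the 10 libraries (vertical axis, TMM-scaled CPM on a log axis, values under 0.03 drawn at 0.03); each point is a library and colours give the cell type. The 2 cHC points lie under all 6 native points for each gene, and for Ocm, AI593442 and Chst2 they lie among or next to the SC points.

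Genes of mature OHCs were called lower in cHCs for 7 of 16 tested members and higher for none (edgeR quasi-likelihood test; none higher at an unadjusted p under 0.05, by limma-voom or by DESeq2), with a list median of -2.33 (log2; 0.20 over all genes tested). Tbx2 was among the 7 and stands in the IHC list too. It was at 3.44 and 0.632 CPM in OHCs (P22) against 272 and 198 CPM in IHCs, so that it did not mark OHCs here. The summed level of the 16 was 939.8 and 1078 CPM in cHCs, 8821 and 9102 CPM in OHCs (P7), 25625 and 21125 CPM in OHCs (P22) and 1740 and 1618 CPM in IHCs. Against OHCs (P7) alone, 4 of the 16 were lower. Slc26a5, which encodes prestin, was at 97.6 and 23.4 CPM in cHCs, 1061 and 1094 CPM in OHCs (P7), 3789 and 2749 CPM in OHCs (P22), and 1.31 and 0.859 CPM in IHCs. Against the pooled native types the difference of Slc26a5 did not pass (edgeR quasi-likelihood FDR = 0.172), but it passed without cHC library 13 (FDR = 0.0175), and the FDR reached 0.657 without cHC library 16. By the same test cHCs were lower than OHCs (P7) (log2 difference -4.15 ± 0.65 SE, FDR = 0.0281) and higher than IHCs (5.79 ± 0.71 SE, FDR = 0.00594).

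Lmod3, an actin-binding leiomodin, followed the same order, with 4.04 and 0.686 CPM in cHCs, 344 to 863 CPM in the 4 OHC libraries and 0.135 and 0.172 CPM in IHCs. Strc, which encodes stereocilin, was at 119 and 228 CPM in cHCs, 143 and 134 CPM in IHCs and 674 to 4185 CPM in OHC libraries. Its call (FDR = 0.0337, edgeR quasi-likelihood test) was lost without cHC library 13, with an FDR of 0.206. Aff3, a nuclear factor of the AF4 family, was below the native range, at 14.8 and 6.81 CPM in cHCs against 42.5 to 239 CPM, and its call was lost without cHC library 16 (FDR = 0.0699, same test).

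Of 8 genes listed for IHCs, 5 were lower in cHCs and 1 was higher, and 2 of the 8 were lower against OHCs (P7) alone. Otof and Kcnma1, described above, were among the 5. Kcnma1 had a mean of 320 CPM in OHCs (P22) and 269 CPM in IHCs, so that it did not mark IHCs here. The higher gene, Rprm, was at 13.9 and 46.8 CPM in cHCs, 0 and 0.275 CPM in IHCs and 9.06 and 11.4 CPM in SCs. It was at 7.32 and 0.0546 CPM in OHCs (P7), so that it did not mark IHCs in these libraries. Slc17a8, the vesicular glutamate transporter of IHCs, was at 1.87 and 0 CPM in cHCs, 1907 and 1763 CPM in IHCs and 26.3 to 75.5 CPM in OHC libraries (edgeR quasi-likelihood FDR = 0.0188). Nefl, the light neurofilament subunit, was at 0.511 and 0.0254 CPM in cHCs and 19 to 358 CPM in native libraries (FDR = 0.0155, same test). Tbx2, a T-box factor of IHCs, was at 0.0425 and 0.279 CPM in cHCs, 272 and 198 CPM in IHCs and 0.632 to 13.9 CPM in OHC libraries, and the call was lost without cHC library 13 (FDR = 0.0946, same test). Both cHC libraries were below every native library for Slc17a8, Nefl and Tbx2.

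In the hair bundle, lists of transduction and link genes and of stereocilia actin genes together gave calls in both directions. Of 23 transduction and link genes, 2 were higher and 3 lower, and of 32 actin genes 4 were higher and none lower by edgeR's quasi-likelihood test, where 6 were lower at an unadjusted p under 0.05, and limma-voom called 2 and DESeq2 3 lower. Myo3b, a myosin of stereocilia tips, was at 96.6 and 203 CPM in cHCs, 70.5 and 42.9 CPM in OHCs (P7) and 0 in the 4 other native libraries (edgeR quasi-likelihood FDR = 0.00074). Against OHCs (P7) alone Myo3b did not pass (FDR = 0.591, same test).

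Cib3, a partner of the transduction channel, was at 3.74 and 44.8 CPM in cHCs and at 0 in 5 of 6 native libraries, and the call was lost without cHC library 16 (edgeR quasi-likelihood FDR = 0.14). Clrn1, the Usher protein clarin 1, was lower, at 39.7 and 27.8 CPM in cHCs and 195 to 463 CPM in native libraries (FDR = 0.00577, same test). Without cHC library 16 the FDR of Clrn1 was 0.0578. Espnl, an espin-like actin bundler, shows what the averaging over types does. It was called higher (FDR = 0.00128, same test), yet it stood at 159.9 and 265 CPM in cHCs and 647 and 785 CPM in OHCs (P7), because OHCs (P22) had 0 and 0.0421 CPM and IHCs 7.54 and 1.2 CPM. Its cHC mean was 0.886 times the native mean.

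Ribbon synapse genes gave 1 higher (3.57%) and 2 lower (7.14%) of 28 tested, beside 3.45% and 0.805% of all genes tested. The share called higher was thus near that over all genes. The lower ones were Otof and Slc17a8. Rims2, an active zone scaffold, was at 243 and 274 CPM in cHCs, 71.4 and 142 CPM in OHCs (P7), 0.882 and 4.42 CPM in OHCs (P22) and 129.7 and 178 CPM in IHCs. Its FDR of 0.0252 (edgeR quasi-likelihood test) rose to as much as 0.0757 when either cHC library was left out. Of 10 genes of the efferent synapse, Chrna9 and Chrng were higher and Kcnn2 was lower. Chrng, the fetal gamma subunit of the muscle acetylcholine receptor, was at 12.2 and 164 CPM in cHCs, 0.0671 and 3.66 CPM in OHCs (P7) and 0 in the other native libraries, and its call was lost without cHC library 16 (FDR = 0.116, same test). Kcnn2, the SK2 channel that follows the efferent receptor, was at 5.23 and 10.5 CPM in cHCs, 15.7 and 6.15 CPM in IHCs and 117 to 228 CPM in OHC libraries, with an FDR of 0.0344 (same test). That call was kept only without the P22 library of OHCs (P22) or the P75 library of IHCs, with an FDR of up to 0.248 in the other fits.

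Among 23 calcium handling genes, 3 were higher and 5 lower, and their summed level was 9134 and 9112 CPM in cHCs against 18105 to 21173 CPM in native libraries. Anxa4, a calcium-dependent membrane binding annexin, was at 1305 and 1946 CPM in cHCs, 32.8 and 18.5 CPM in SCs and 0.253 to 89 CPM in native libraries, a 47.5-fold ratio of cHC to native means (edgeR quasi-likelihood FDR = 0.00458). Against OHCs (P7) alone the log2 difference of Anxa4 was 4.21 ± 1.40 SE and did not pass (FDR = 0.315, same test). Atp2a3, the SERCA3 calcium pump, was at 1.11 and 0.0508 CPM in cHCs, 1289 and 1548 CPM in IHCs and 1.76 to 60.9 CPM in OHC libraries (FDR = 0.00968, same test). In this list the genes of parvalbumin and the annexin thus lay above the native range, and that of oncomodulin below it.

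Of 19 tested potassium channel genes, 3 were higher and 3 lower (15.8% each, beside 3.45% and 0.805% of all genes tested). Kcnh7, an erg-type channel, was at 328 and 344 CPM in cHCs, 74.9 and 30.1 CPM in OHCs (P7), 9.35 and 36 CPM in OHCs (P22) and 5.86 and 2.75 CPM in IHCs, with a log2 difference of 4.28 ± 0.59 SE (edgeR quasi-likelihood FDR = 0.00328). Kcnj2, an inward rectifier, was at 18.8 and 22.2 CPM in cHCs, 9.42 and 10.8 CPM in SCs and at most 0.0882 CPM in native libraries (FDR = 0.00628, same test). Kcna10, a channel of hair bundles, was lower, at 49.1 and 67 CPM in cHCs and 233 to 727 CPM in native libraries, and the call was lost without cHC library 13 (FDR = 0.0679, same test).

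Supporting cell genes were higher in cHCs for 9 of 33 members and lower for 1, with a list median of 3.42 (log2; 0.20 over all genes tested), and higher in SCs for 21 of 33. The cHC libraries differed here, with a summed level of 6054 CPM in library 13 and 1721 CPM in library 16, against 1303 to 5296 CPM in native libraries and 16942 and 23057 CPM in SCs. Without library 13, 4 of 33 were higher. None of the 33 passed against OHCs (P7) alone by edgeR's quasi-likelihood test, where 9 were higher and 3 lower at an unadjusted p under 0.05, and limma-voom called 1 higher and 2 lower, and DESeq2 8 higher and 3 lower. Fgfr3, whose regulatory sequence drives the Cre of this line, was at 458 and 431 CPM in cHCs, 167 and 312 CPM in SCs and 0 to 103 CPM in native libraries (edgeR quasi-likelihood FDR = 0.0293). Without the P22 library of OHCs (P22) the FDR of Fgfr3 was 0.0627. Prox1, a homeobox gene of OHC progenitors and supporting cells, was at 247 and 293 CPM in cHCs, above 14.7 and 53.7 CPM in SCs and 0.0671 to 95.7 CPM in native libraries, with a call lost without either OHC (P22) library (FDR of up to 0.0747, same test). Fgfr3 and Prox1 were thus as high in library 16 as in library 13.

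Other members of the supporting cell list followed library 13. Sox9, a supporting cell factor, was at 126 and 16 CPM in cHCs, 402 and 242 CPM in SCs and 0.0842 to 96 CPM in native libraries, and without library 13 its FDR was 0.593 (edgeR quasi-likelihood test). Epyc, a matrix proteoglycan, was at 919 and 4.34 CPM in cHCs, 2661 and 2767 CPM in SCs and 0.168 to 247 CPM in native libraries, and did not pass (FDR = 0.0692, same test). It passed by DESeq2 (FDR = 0.00378), without cHC library 16 (FDR = 0.00535, edgeR quasi-likelihood test) and without OHC (P7) library 15 or 14 (FDR = 0.004 and 0.0202). Rorb, the retinoid-related receptor beta, was the lower member, at 225 and 53.2 CPM in cHCs, 641 and 1010.3 CPM in SCs and 595 to 1919 CPM in native libraries, and its call was lost without cHC library 16 (FDR = 0.0614, same test). How much RNA of other cells took part in these values was not tested.

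Genes of the FGF pathway, which shapes pillar and other supporting cells, were higher in cHCs for 4 of 16 tested members and lower for none (edgeR quasi-likelihood test; 1 lower at an unadjusted p under 0.05, none by limma-voom and 1 by DESeq2). Their summed level was 984 and 777 CPM in cHCs and 887 and 945 CPM in SCs, and 196 to 274 CPM in native libraries. Fgfr3, whose sequence drives the Cre that labelled cHCs and SCs, gave 458 and 431 CPM of the cHC sum. It gave 167 and 312 CPM of the SC sum and 0 to 103 CPM in native libraries. Of the 16 tested members, 6 lay above the native range in cHCs, beside 8.74% of all genes tested. None of the 16 passed against OHCs (P7) alone by edgeR's quasi-likelihood test, where 3 were higher at an unadjusted p under 0.05, and limma-voom called none and DESeq2 3 higher. Besides Fgfr3, the 4 were the receptor gene Fgfr4 and the pathway genes Etv1 and Il17rd. The call of Fgfr4 was lost without the P21 library of OHCs (P22). That of Il17rd was lost without cHC library 16, either OHC (P22) library or the P74 library of IHCs. Etv1, an ETS factor downstream of FGF receptors, was at 77.7 and 62.6 CPM in cHCs, 13.7 and 43.3 CPM in SCs, 24.8 and 0.109 CPM in OHCs (P7) and at most 0.421 CPM in other native libraries (edgeR quasi-likelihood FDR = 0.0219).

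Wnt pathway genes were higher for 5 of 31 tested members (16.1%) and BMP, TGF-beta and Id genes for 4 of 24 (16.7%), beside 3.45% of all genes tested. None was lower in either list by edgeR's quasi-likelihood test. In the Wnt list 1 member was lower at an unadjusted p under 0.05 and 1 by DESeq2, and limma-voom called none lower; in the other list none was lower by any of these. Fzd9, a Wnt receptor, was at 42 and 125 CPM in cHCs, 103 and 94.4 CPM in SCs, 1.54 and 19.3 CPM in OHCs (P7) and 0 in the other native libraries (edgeR quasi-likelihood FDR = 0.00283). Nkd1, a feedback inhibitor of Wnt signalling, was at 32.2 and 67.7 CPM in cHCs, 0.0888 and 0.584 CPM in SCs and at most 2.48 CPM in native libraries (FDR = 0.0141, same test). Id1, an inhibitor of helix-loop-helix factors, was at 55.5 and 30.2 CPM in cHCs, 197 and 102 CPM in SCs, and at 54.1 and 69.5 CPM in IHCs, so that it lay within the native range although called higher (FDR = 0.00283, same test).

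Of 24 cell cycle genes, 2 were higher (8.33%, beside 3.45% of all genes tested), and both encode inhibitors of cyclin-dependent kinases. Cdkn1c, which encodes p57, was at 196 and 275 CPM in cHCs, 0.222 and 3.56 CPM in SCs and at most 0.464 CPM in native libraries (edgeR quasi-likelihood FDR = 0.00127), a 1264-fold ratio of means. Cdkn1b, which encodes p27, was at 121 and 57.6 CPM in cHCs, 408 and 267 CPM in SCs and 3.17 to 65.9 CPM in native libraries, with an FDR of 0.0361 (same test). That call was lost without cHC library 13, OHC (P7) library 15, the P21 library of OHCs (P22) or the P75 library of IHCs, with an FDR of up to 0.297. Among junction genes, Cdh1, the epithelial cadherin, was at 524 and 546 CPM in cHCs, 213 and 256 CPM in SCs, 73.2 and 112 CPM in OHCs (P7), 0.353 and 0.716 CPM in OHCs (P22) and 16.4 and 19.4 CPM in IHCs, with a log2 difference of 5.78 ± 0.39 SE (FDR = 0.000119, same test). It was the 1 junction gene called of 19 (5.26%, beside 3.45% of all genes tested).

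Cytoskeletal genes of the tubulin and intermediate filament list were higher for 4 of 30 members and lower for 2. Stmn1, the tubulin-binding stathmin of growing cells, was at 244 and 219 CPM in cHCs, 68.8 and 343 CPM in SCs and 0.97 to 26.4 CPM in native libraries (edgeR quasi-likelihood FDR = 0.00453). Tuba8, an alpha-tubulin, was at 0.128 and 0.94 CPM in cHCs and 41.7 to 289.5 CPM in native libraries, and was 1 of the 22 genes beyond every native type. Nefl was the other lower gene of this list.

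The 12 largest differences in each direction are those of the fitted log2 difference among genes called and outside the native range, and their order depends on the prior count where a group is at 0. Of the 12 higher genes, 5 were at 0 in all 6 native libraries: Myo7b, Gm13304, Ccl21b, Cysltr1 and Cd163. In 26 of the 583 higher genes all 6 native libraries were at 0. Myo7b, a myosin of gut and kidney microvilli, was at 31.8 and 32 CPM in cHCs and 0.0444 and 0.0797 CPM in SCs. Against a floor of 3 counts in each native library it was at least 218-fold higher in cHCs (edgeR quasi-likelihood FDR = 0.00743). That FDR is no separate support, because Myo7b entered the test only through the cHC libraries, where it was high. The same held for Gm13304, Ccl21b and Cysltr1, which were at most 0.0531 CPM in SCs. Ccl21b and Gm13304, both of the Ccl21 chemokine genes, were at 37.9 and 22.5 CPM and at 40.5 and 22.2 CPM in cHCs. These genes are near-identical copies, so that reads may be split between them, and their levels are uncertain. Cysltr1, a leukotriene receptor, was at 53.2 and 6.58 CPM in cHCs, and without cHC library 13 its FDR was 0.116 (same test). Cd163, a macrophage scavenger receptor, was at 34.7 and 14.4 CPM in cHCs and at 0 and 18 CPM in SCs, with an FDR of 0.0344 (same test) that reached 0.0571 without cHC library 13 or either OHC (P22) library.

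Figf, Slc52a3, Dll3, St18, Neurod6, Igll1 and Atoh1 completed the 12. Figf, the lymphatic growth factor VEGF-D, was at 51.7 and 64 CPM in cHCs and at most 0.0671 CPM in native libraries. Slc52a3, a riboflavin transporter, was at 57.8 and 167 CPM in cHCs and at most 0.737 CPM in native libraries. Both passed the test (edgeR quasi-likelihood FDR = 0.00934 for Figf and 0.00287 for Slc52a3), and SCs were at 0 to 2.63 CPM for them.

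On the lower side, the 12 largest differences held Crip3, A530016L24Rik, Atp6v1c2, A830039N20Rik, Gcnt4, Akap6, AI593442, Fign, Tsku, Slitrk3, Popdc3 and Kcnma1. Slitrk3 had no count in cHCs, but it was at only 0.201 to 1.06 CPM in OHC libraries, against 34.4 and 102 CPM in IHCs. Its call was lost without either cHC library and without several native libraries. The call of Popdc3 was lost without either cHC library. Fign, a microtubule-severing enzyme, was at 0.0851 and 0 CPM in cHCs and 3.56 to 112 CPM in native libraries (edgeR quasi-likelihood FDR = 0.00524). Akap6, an anchor of protein kinase A, was at 0.0425 and 0 CPM in cHCs and 0.491 to 131 CPM in native libraries, and its call was lost without cHC library 16 (FDR = 0.0749, same test). Tsku, a secreted leucine-rich protein, was at 0.128 and 0 CPM in cHCs and 2.2 to 238 CPM in native libraries, likewise lost without library 16 (FDR = 0.0554, same test). SCs were at or under 0.0444 CPM for Fign, Akap6 and Tsku, as low as cHCs.

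The study lists transcription factor genes as a subset of its expression table, which was filtered for minimum expression on these libraries. Of these genes 25 were higher in cHCs (5.63%) and 6 lower (1.35%), beside 3.45% and 0.805% of all genes tested, and 17 and 6 of these lay outside the native range. The list median was 0.02 (log2; 0.20 over all genes tested), and 2 were higher and 3 lower against OHCs (P7) alone. Zbtb20, a zinc finger repressor, was at 3299.7 and 2197 CPM in cHCs, 5231 and 4781 CPM in SCs and 132 to 1145 CPM in native libraries, with a log2 difference of 2.45 ± 0.38 SE (edgeR quasi-likelihood FDR = 0.006). Nfia, a nuclear factor I gene, was at 459 and 537 CPM in cHCs, above both SCs, at 166 and 181 CPM, and native libraries, at 49.5 to 227 CPM. Without cHC library 16 the FDR of Nfia was 0.0681. Esrrg, an estrogen-related receptor, was at 50.5 and 98.5 CPM in cHCs, at most 0.0444 CPM in SCs and 0 to 7.44 CPM in native libraries, with a call lost without cHC library 16 (FDR = 0.114, same test). Besides these, Atoh1, Nhlh1, Pax2, Hey1, Hey2, Creb3l4 and Bach2 were named by the rule on the higher side, and Pknox2, Zfp827, Aff3, Tbx2, Rorb and Sall3 on the lower side. The call of Bach2 was lost without either cHC library, either OHC (P7) library or the P74 library of IHCs. That of Sall3 was lost without either cHC library.

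**Figure D5:**
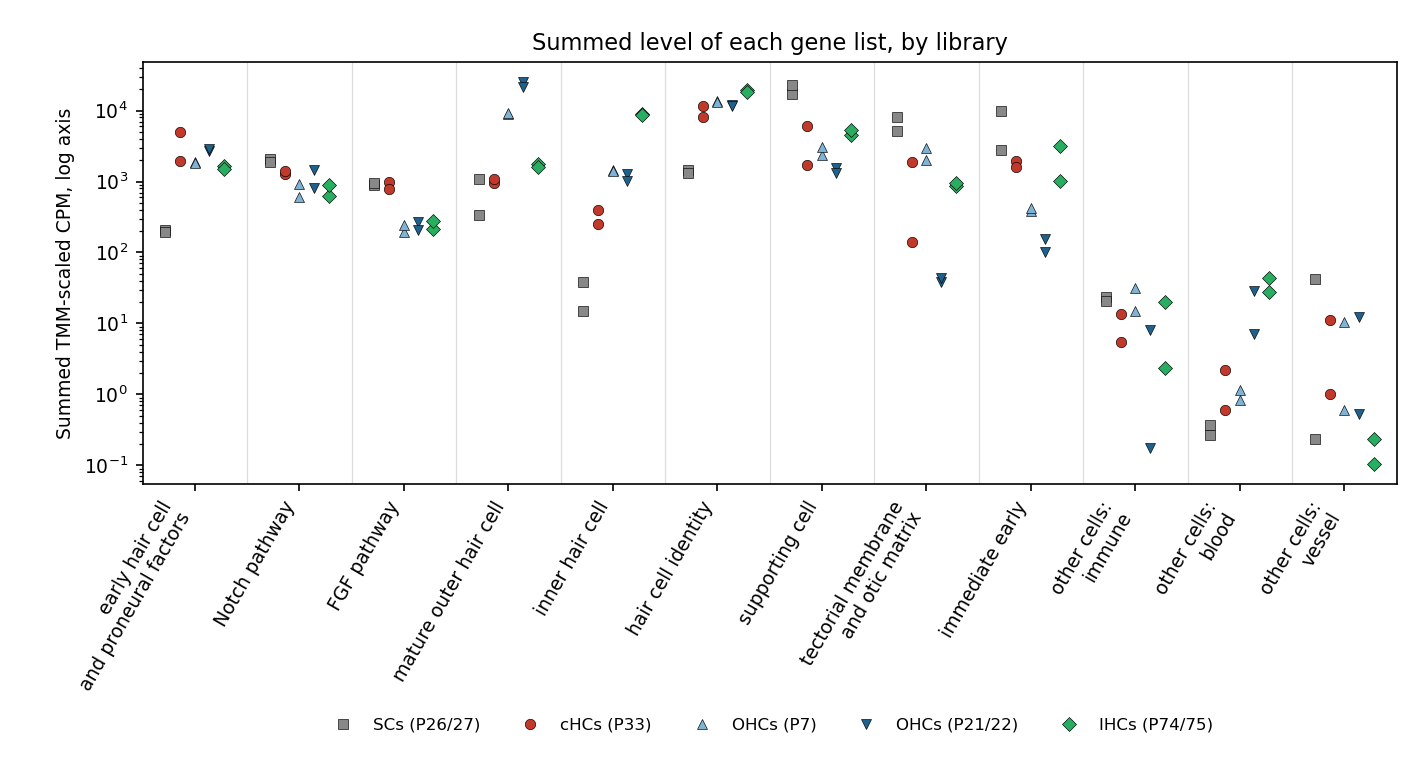
Summed level of 12 gene lists in each of the 10 libraries (vertical axis, summed TMM-scaled CPM on a log axis); each point is a library and colours give the cell type. The FGF sum was 777 to 984 CPM in cHCs and 196 to 274 CPM in native libraries, the supporting cell sum differed between the cHC libraries, and immune, blood and vessel sums were low throughout.

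Immediate early genes, which respond within minutes to many stimuli, were higher in cHCs for 6 of 31 tested members, with a list median of 2.82 (log2; 0.20 over all genes tested). Egr1, one of them, was at 500.0 and 579 CPM in cHCs, 911 and 2802 CPM in SCs, 77.5 and 129.6 CPM in OHCs (P7), 9.96 and 1.35 CPM in OHCs (P22) and 166 and 1134 CPM in IHCs. It lay within the native range, and its call (edgeR quasi-likelihood FDR = 0.0433) was lost without either cHC library, with an FDR of up to 0.0739. Summed over the list, cHCs were at 1916 and 1603 CPM, SCs at 2809 and 9959 CPM and native libraries at 99.98 to 3151 CPM. Of 25 stress and chaperone genes none was called in either direction by edgeR's quasi-likelihood test, where 5 were higher and 2 lower at an unadjusted p under 0.05. Limma-voom called 1 of them higher and 2 lower, and DESeq2 2 higher and 1 lower.

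Among markers of other cell types, of 4 tested immune markers none was called by edgeR's quasi-likelihood test or limma-voom, and 1 was higher at an unadjusted p under 0.05 and by DESeq2. Of the 4 tested, 3 had a positive log2 difference, and the median of the 4 was 1.98, against 0.20 over all genes tested. The immune sum over 12 markers was 13.5 and 5.49 CPM in cHCs, 0.176 to 31.2 CPM in native libraries and 20.9 to 23.4 CPM in SCs. Of the 12 markers, 3 had no count in either cHC library. The macrophage gene Cd163, which is not among these 12, was called higher, at 34.7 and 14.4 CPM in cHCs and 0 in all 6 native libraries. Blood markers summed to 0.596 and 2.18 CPM in cHCs and 0.846 to 43.9 CPM in native libraries, and none of 3 tested was called by edgeR's quasi-likelihood test, at an unadjusted p under 0.05, by limma-voom or by DESeq2. Vessel markers summed to 11.2 and 1.02 CPM in cHCs and 0.103 to 12.3 CPM in native libraries, with none of 3 called by edgeR's quasi-likelihood test or limma-voom, 2 higher at an unadjusted p under 0.05 and 1 higher by DESeq2. The median log2 difference of these 3 was 6.07, and all 3 were low in native libraries, at most 0.436 CPM. None of 12 neuron markers was called by edgeR's quasi-likelihood test, where 1 was higher and 2 lower at an unadjusted p under 0.05, and limma-voom called 1 higher and DESeq2 1 higher and 2 lower. None of 5 lateral wall markers was called by edgeR's quasi-likelihood test, limma-voom or DESeq2, and 1 was higher at an unadjusted p under 0.05. Of 8 tested glia markers S100b, a calcium-binding protein that supporting cells also carry, was higher, at 97.6 and 39.4 CPM in cHCs, 15.9 and 98.8 CPM in SCs and 0.337 to 20.6 CPM in native libraries, with an FDR of 0.0268 (edgeR quasi-likelihood test) that reached up to 0.181 without cHC library 13, OHC (P7) library 15 or the P22 library of OHCs (P22). Of 9 mesenchyme markers Lum, the matrix protein lumican, was higher, at 178 and 6.6 CPM in cHCs, 684 and 716 CPM in SCs and 0 to 50.2 CPM in native libraries, and without cHC library 13 its FDR was 0.311 (same test).

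Of 81 cytosolic ribosomal protein genes none passed in either direction by edgeR's quasi-likelihood test, where 19 were higher and none lower at an unadjusted p under 0.05, and limma-voom and DESeq2 each called 4 higher. Of the 81, 17 lay above the native range, and 34 were higher in SCs. Without the P22 library of OHCs (P22) 6 were called higher. The summed ribosomal level was 14241 and 15494 CPM in cHCs, 14957 and 15365 CPM in OHCs (P7), and 5651 to 9184 CPM in OHCs (P22) and IHCs. Of 78 nuclear genes of oxidative phosphorylation none passed by edgeR's quasi-likelihood test, limma-voom or DESeq2, and 1 was higher and 5 lower at an unadjusted p under 0.05. Without the P22 library of OHCs (P22) 1 was called higher. Their sum was 4550 and 4923 CPM in cHCs, 4871 to 5870 CPM in OHCs (P22) and IHCs, and 11570 and 11932 CPM in OHCs (P7), and 6 of them lay below the native range. Tectorial membrane and otic matrix genes, with 19 tested, were not called in cHCs by edgeR's quasi-likelihood test or limma-voom, with 4 higher at an unadjusted p under 0.05, and DESeq2 called 2 higher and 1 lower. Without cHC library 16, OHC (P7) library 15 or OHC (P7) library 14, edgeR called 3, 2 and 3 higher. In SCs 6 of the 19 were higher.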

How the data were processed

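Bulk RNA-seq libraries of handpicked, pooled cells (5 cell types, 2 libraries each) were amplified and sequenced with no molecular identifiers. The authors deposited raw read counts per gene, and the submitters' processing notes name STAR, BWA, HTSeq, CASAVA 1.7 and mm9. The strand setting of counting is not given in the sources used here, so overlapping genes cannot be told apart. For 4 of 10 files the name is the title of another record, and the library was taken from the file name. Rows of unassigned reads (44.2 to 72.1% of reads) were left out. Genes passing filterByExpr were fitted with edgeR 4.0.16 (R 4.3.3; TMM, quasi-likelihood test, Benjamini-Hochberg FDR under 0.05) over all 10 libraries, with the contrast cHCs minus the mean of the 3 native types. The fit was tested on simulated data in which only cHCs differed. The native types did not differ there, so that test does not cover the averaging over types. Text names the 12 largest differences per direction, genes beyond every native type (10 at most where over 20), up to 4 genes per list and direction with others a sentence needed, reporter genes and transcription factors. Members and lists were chosen with earlier results of these data known. Alternatives were limma-voom 3.58.1, DESeq2 1.42.0, its size factors, other filters and sample sets, and each library left out. Results of some genes are not reported here.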

Additional observations from a re-analysis of the deposited data

How the results depend on the processing

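Higher and lower calls numbered 980 and 226 by limma-voom, 1258 and 601 by DESeq2, 1633 and 345 with no filter on low counts, 124 and 89 where every library needed 10 counts, 82 and 20 with the native libraries as 1 group, and 21 and 37 against OHCs (P7) alone. Of the 583 higher and 136 lower genes, limma-voom shared 500 and 116, and DESeq2 571 and 136. With 1 library left out they numbered 299 to 517 and 75 to 166, the fewest being 299 and 87 without cHC library 13, and 75 lower without cHC library 16. Genes beyond every native type numbered 136 higher and 37 lower by limma-voom, 191 and 141 by DESeq2, and 100 and 97 with no filter; 3 were higher where every library needed 10 counts, and 3 to 22 higher and 12 to 29 lower with 1 library left out. Genes called and outside the native range numbered 1012, 1169, 1072 and 174 under the first 4 alternatives, and 356 to 508 with 1 library left out. For SCs, DESeq2 gave 1822 higher and 1877 lower, and no filter 1871 and 1024. DESeq2's size factors within edgeR kept the calls of all 92 called genes named here. The cause of these shifts was not tested.

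With the native libraries as 1 group 30 of the 92 named calls were kept, and that of Atoh1 was lost (edgeR quasi-likelihood FDR = 0.0688). The log2 difference of Espnl turned to -0.18 there and to -1.75 against OHCs (P7) alone, and that of Epyc to -1.75 without cHC library 13, the lowest of -1.75 to 7.09 with 1 library left out.

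With each file assigned to the record it is attached to, in place of its name, 1 gene was called higher, 0 were lower (edgeR quasi-likelihood test; 1771 genes at an unadjusted p under 0.05), 0 were beyond every native type in either direction, and 1 was called outside the native range. Signs then turned for Myo7b (-0.49), Gm13304 (-0.80), Ccl21b (-1.57), Cysltr1 (-3.16), St18 (-0.68), Neurod6 (-1.09), 6330503K22Rik (-1.97), Ecel1 (-2.05), Pax2 (-3.65), Rph3a (-4.66), Pvalb (-0.53), Chrna9 (-0.75), Cib3 (-1.91), Rims2 (-0.30), Esrrg (-8.45), Hes6 (-1.45), Myo6 (-0.99), AI593442 (0.038), Tsku (0.035), Ocm (0.42), Aff3 (0.37), Lmod3 (3.62), Rorb (0.086), Kcnn2 (0.10) and Slc26a5 (2.08), all as log2 differences. No paired analysis was possible because replicate numbers here only name libraries of separate mouse lines and ages.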
